A study of Mus musculus with 43 samples.

Results

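Host myeloid cells were taken from the bone marrow of mice 52 weeks after transplantation of JAK2V617F marrow, and of mice without a transplant. The cells were sorted as positive for both CD45.1, the surface allele that marks the recipient mouse, and CD11b. Of the 43 libraries of the series, 6 belong to the comparison: 3 titled CD11b_BMT and 3 titled CD11b_Control, matched to the columns of the deposited tables by library name. The CD11b BMT mice, N187, N116 and N129, were wild-type CD45.1 males that had received 5000000 whole marrow cells positive for JAK2V617F and carrying CD45.2, without any conditioning. The CD11b control mice, N168, N112 and N128, were wild-type CD45.1 males, matched for age and sex, that received no transplant. One mouse of each group (N187 and N168) was euthanized on day 26 of September 2024, and the other 4 on day 27. The series also holds 7 CD45.1 host and 8 CD45.1 control marrow libraries, sorted without the CD11b gate from other mice of both sexes. The CD45.1 host mice had received 5000000 cells about 7 months before, and the CD45.1 control mice received no transplant. Both groups were euthanized in April and May 2023. Blood chimerism, age in figures and the line of the donor mice are not given for the CD11b mice in the sources used here. No mouse received normal marrow, so the presence of the mutant clone and the transplantation itself cannot be told apart, and gene counts cannot separate host from donor RNA.

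CD11b, the product of Itgam, is the alpha chain of the integrin Mac-1 and is carried by neutrophils and their precursors, monocytes, many macrophages, eosinophils and some NK cells. In marrow most CD11b-positive cells are neutrophils at successive stages. Promyelocytes make the primary granule proteins such as myeloperoxidase, later precursors make the secondary and tertiary granule proteins, and mature cells carry the receptors for chemokines and formylated peptides. Marrow macrophages engulf dying cells and expelled nuclei, make the complement component C1q, and export the cholesterol they take up through the transporters ABCA1 and ABCG1. JAK2V617F is the activating kinase mutation found in most patients with polycythaemia vera and in many with other myeloproliferative neoplasms.

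The libraries held 32478800 to 44853593 counts in CD11b BMT and 35526852 to 42976716 counts in CD11b control mice, and 15257 genes passed the filter on low counts. The gate was checked against marker genes. Genes of the B lineage took 0.00683% to 0.0141% of the counts in CD11b BMT and 0.00851% to 0.0199% in CD11b control libraries, against 0.0706% to 0.202% in the CD45.1 control libraries without the CD11b gate. Mature neutrophil genes took 4.83% to 7.58% in CD11b BMT and 7.84% to 8.84% in CD11b control libraries, against 2.34% to 4.13% in CD45.1 controls. The genes with the highest TPM (a level per transcript length) were S100a9 and S100a8 in both groups, followed by the granule genes Ngp, Camp and Ltf and the lysozyme gene Lyz2. Itgam itself had 590, 615 and 459 CPM (counts scaled to the effective library size, with TMM factors) in N187, N116 and N129, against 690, 647 and 622 CPM in the controls N168, N112 and N128. Jak2 had 114 to 121 CPM in CD11b BMT and 114 to 123 CPM in CD11b control libraries.

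Library N129 stood apart from the other 5. On the first principal component, which held 40% of the variance, it lay at -79.8, against -4.9 and -4.7 for N187 and N116 and 26 to 33.9 for the controls. It had 56 genes at least 4-fold above and 59 at least 4-fold below the mean of the other 5 libraries, among 10930 genes with a mean of at least 2 CPM. Saa3, an acute-phase serum amyloid gene, had 343 CPM in N129, against 4.02 and 6.02 CPM in N187 and N116 and at most 0.298 CPM in controls. The cytotoxic granule gene Gzmb had 32.6 CPM in N129 and 0.0993 to 0.748 CPM in the other 5. The adult beta-globin gene Hbb-bs had 2.51 CPM in N129 and 28.1 to 77.3 CPM in the others, and the inducible heat-shock gene Hspa1a had 11.1 CPM in N129 and 192 to 309 CPM in the others. N187 differed in another way and lay at 64.2 on the second component, where the other 5 lay between -17.3 and -9.4. Of the 35 genes at least 4-fold higher in N187 than in the other 5 libraries, 9 have the symbol of a pseudogene or retrotransposed copy and 14 are gene models without a name. These genes were picked after their values were seen.

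**Figure D1:**
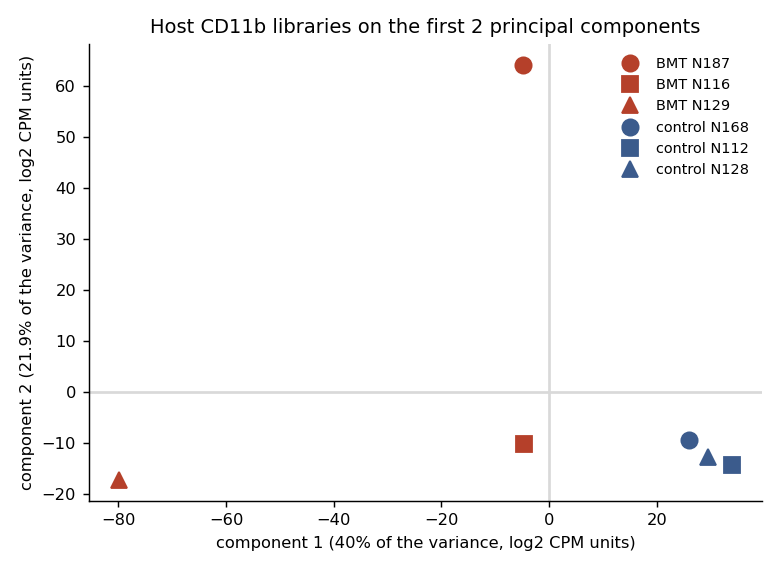
Each point is 1 library placed by its scores on component 1 (x axis) and component 2 (y axis) of log2 CPM over all genes tested, with red for CD11b BMT and blue for CD11b control. The controls lie together at 26 to 33.9 on component 1, while N129 lies at -79.8 and N187 at 64.2 on component 2.

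No gene passed at an adjusted p below 0.05 in edgeR's quasi-likelihood test of 3 CD11b BMT against 3 CD11b control libraries (0 higher and 0 lower, 0% of the 15257 tested). The smallest adjusted p in that edgeR test was 0.0886. At an unadjusted p below 0.05 there were 1382 genes on the higher side (9.06%) and 1124 on the lower side (7.37%). Of the other tests of the same 6 libraries, limma-voom called 0 genes, while DESeq2 called 218 higher and 115 lower. Levels were therefore also described by overlap: 1867 genes (12.2%) had every CD11b BMT library above every control and 1815 (11.9%) had every one below. With library totals in place of TMM the split was 2687 above and 1058 below, and on the TPM scale 2071 above and 685 below. The median log2 fold change of all genes was 0.017 with TMM, 0.13 with library totals and 0.12 on the TPM scale. The overlap count was added after no gene had passed. Without N187, edgeR called 25 genes higher and 3 lower, and without N129 it called 2 higher and 1 lower. The 2 higher were Cadm1 and Saa3 (log2 fold change of Saa3 4.70, edgeR adjusted p = 0.0373 without N129), and the 1 lower was Amer2. Without N116, or without any 1 of the controls, edgeR called 0 in both directions. Fewer libraries are easier to separate: of all genes tested, 18.7% were above and 16.5% below every control without N187, 22% and 20.3% without N116, and 14.9% and 14.3% without N129. Of the 28 genes called without N187, 24 were also called by DESeq2 on all 6 libraries. DESeq2 used the same libraries again, so these calls are not independent of each other.

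Among the genes with the smallest p on the higher side was Cadm1, a cell adhesion molecule of the immunoglobulin superfamily (ENSMUSG00000032076). It had 7.07, 12.8 and 18.7 CPM in N187, N116 and N129, against 0.645, 0.518 and 1.05 CPM in N168, N112 and N128. Every transplanted mouse was above every control, with N187 the lowest of the 3. The log2 fold change was 4.11 ± 0.42 (SE, n = 3 each) with an edgeR adjusted p of 0.0886. It passed without N187 (log2 fold change 4.398, edgeR adjusted p = 0.00394) and without N129 (3.74, edgeR adjusted p = 0.0373), but not without N116. Within each day the log2 difference was 2.72 on day 26 and 3.67 on day 27. In the deposited TPM table it had 0.92, 3.5 and 5.89 TPM in N187, N116 and N129, against 0.28, 0.15 and 0.49 TPM in N168, N112 and N128.

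Shtn1, which encodes the cytoskeletal linker shootin 1, had 11.5, 16.9 and 20.1 CPM in N187, N116 and N129, against 3.87, 2.94 and 4.80 CPM in N168, N112 and N128. Its log2 fold change was 2.06 ± 0.26 (SE) with an edgeR adjusted p of 0.205, and the groups did not overlap. Without N187 it was 2.26 and passed (edgeR adjusted p = 0.0147), and without N129 it was 1.88 and did not pass. Ifi30, a lysosomal thiol reductase that unfolds antigens for class II presentation, had 153, 172 and 209 CPM in CD11b BMT libraries, against 111.5, 92.99 and 93.7 CPM in controls. Here too every transplanted mouse was above every control, with a log2 fold change of 0.84 ± 0.13 (edgeR adjusted p = 0.27). Arhgap22, a GTPase-activating protein for Rac, had 1.10 to 3.06 CPM in CD11b BMT and 0.0496 to 0.150 CPM in control libraries. It passed without N187 (edgeR adjusted p = 0.0182), but not without N116 or without N129. The chemokine gene Cxcl14 had 5.24, 1.22 and 3.42 CPM in N187, N116 and N129 and no count in any control. The deposited TPM table lists Cxcl14 at 0, 0.75 and 3.28 TPM in N187, N116 and N129 and at 0, 0 and 0.04 TPM in N168, N112 and N128, so the tables differ for N187 and N128 and no fold is given.

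On the lower side the smallest p belonged to Amer2, an adaptor that binds APC, with 28.4 to 46.9 CPM in CD11b BMT libraries, lowest in N129, against 76.1, 82.5 and 82.8 CPM in N168, N112 and N128. Its log2 fold change was -1.003 ± 0.174 (SE, n = 3 each; edgeR adjusted p = 0.27), and -0.80 without N129 (edgeR adjusted p = 0.0445). Amer2 did not pass without N187 or without N116. Fgl2, a fibrinogen-like prothrombinase of macrophages and T cells, had 87.6 to 104 CPM in CD11b BMT and 130 to 140 CPM in control libraries. Gpcpd1, a glycerophosphocholine phosphodiesterase, had 117 to 132 CPM in CD11b BMT and 164 to 175 CPM in controls. The fibrillar collagen gene Col5a1 had 11.3 to 13.8 CPM in CD11b BMT against 18.7 to 21.1 CPM in controls. These 3 were below every control in every transplanted mouse by a small margin. Hmgb1-ps8, with 13.1 to 15.6 CPM in CD11b BMT against 22.1 to 22.8 CPM in controls, is a pseudogene that can share reads with Hmgb1, which leaves its value uncertain.

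**Figure D2:**
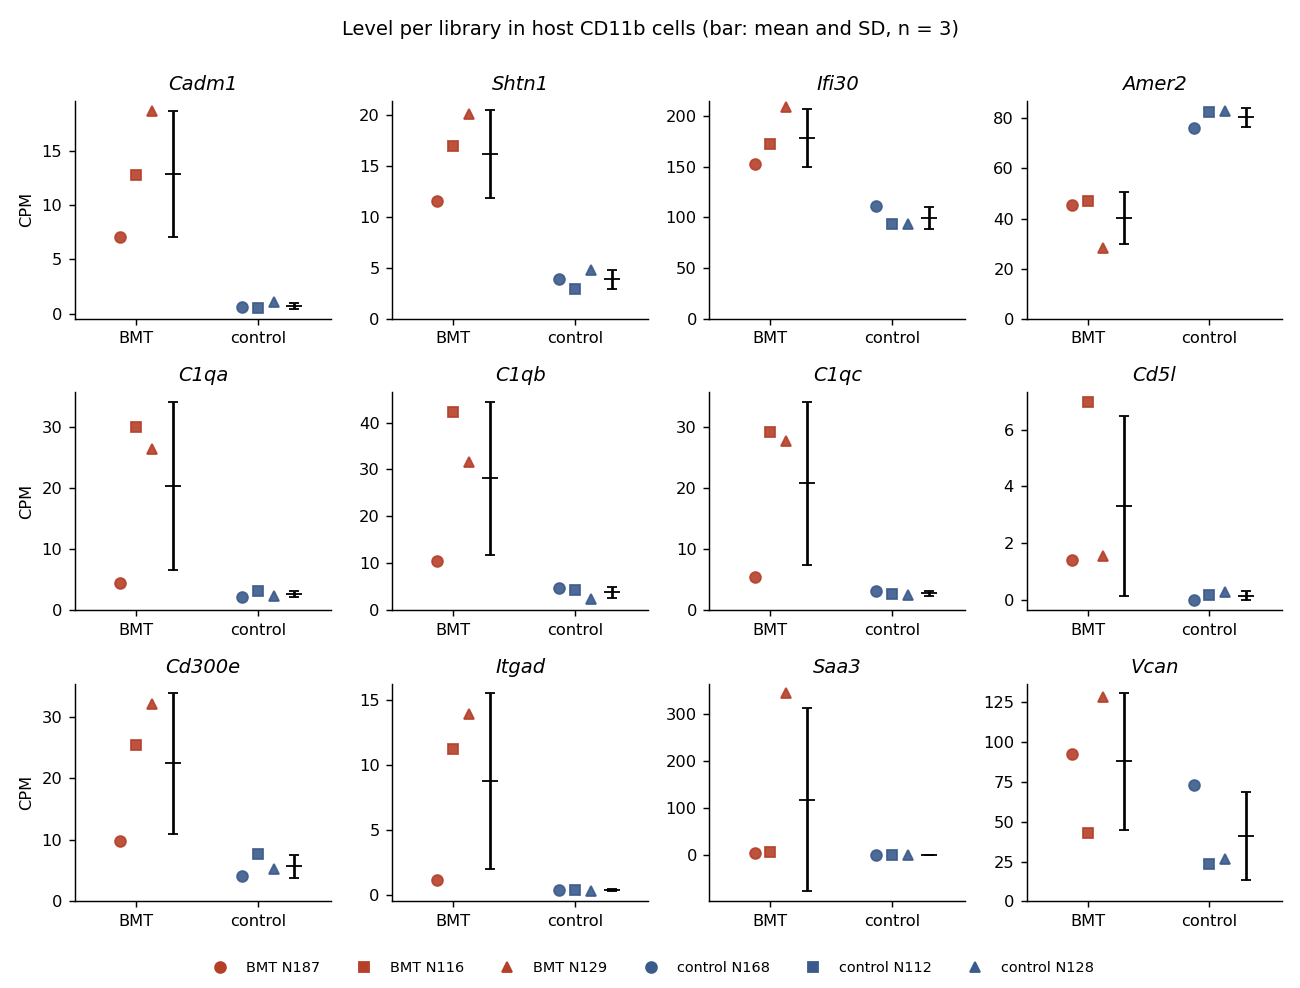
Each panel shows CPM (y axis) in the 3 CD11b BMT libraries (red, left) and the 3 CD11b control libraries (blue, right), with the mean and SD beside the points. Cadm1, Shtn1, C1qa, C1qb and C1qc lie above the controls in all 3 transplanted mice with N187 lowest. Saa3 is at 343 CPM in N129 and at 4.02 and 6.02 CPM in N187 and N116, all above the controls. Vcan overlaps between the groups.

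Genes of resident macrophages stood higher. Of the 21 list members tested, 11 were above every control in every transplanted mouse and 0 were below, against 12.2% and 11.9% of all genes, and the median log2 fold change was 0.64 against 0.017 for all genes tested. Without N187 11 were above and 3 below (background 18.7% and 16.5%), with a median of 0.66. Without N129 12 were above and 0 below (background 14.9% and 14.3%), with a median of 0.45. None of them passed in edgeR with all 6 libraries. The 3 chains of C1q, the starter of the classical complement pathway, had a like pattern. C1qa (ENSMUSG00000036887) had 4.51, 30.0 and 26.4 CPM in N187, N116 and N129, against 2.21, 3.11 and 2.38 CPM in N168, N112 and N128. C1qb had 10.4, 42.3 and 31.6 CPM in CD11b BMT libraries, against 4.67, 4.20 and 2.45 CPM in controls. C1qc had 5.36, 29.2 and 27.6 CPM in CD11b BMT libraries, against 3.13, 2.56 and 2.45 CPM in controls. N116 and N129 were far above the controls for each chain, and N187 was above them by a smaller margin. Log2 fold changes were 2.99 ± 0.59, 2.90 ± 0.48 and 2.93 ± 0.55 (SE, n = 3 each) for C1qa, C1qb and C1qc, each with an edgeR adjusted p of 0.27. Without N187 they were 3.46, 3.29 and 3.39, with edgeR adjusted p-values of 0.000647, 0.00451 and 0.000647. None of the 3 chains passed without N116 or without N129. Within days the C1qa difference was 0.89 on day 26, when N187 was taken, and 3.15 on day 27. In bulk libraries a change in the number of cells of a type and a change in RNA per cell cannot be told apart.

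The C1q genes lie side by side, and the 250 bases upstream of the C1qb and C1qc starts are shown because the C1q chains had a like pattern over the 6 libraries. They come from RefSeq on GRCm38.p6, at chr4:136886201-136886450 for C1qb and chr4:136892915-136893164 for C1qc, both on the minus strand and read 5′ to 3′ toward the gene. Capitals mark the ETS core GGAAGT, the centre of the sites that PU.1 and other ETS factors bind, here on the opposite strand.
C1qb: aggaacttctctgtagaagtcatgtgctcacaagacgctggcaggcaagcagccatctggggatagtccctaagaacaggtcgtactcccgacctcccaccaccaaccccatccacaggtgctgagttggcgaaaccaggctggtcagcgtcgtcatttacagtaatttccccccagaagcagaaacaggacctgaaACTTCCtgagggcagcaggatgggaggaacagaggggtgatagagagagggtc
C1qc: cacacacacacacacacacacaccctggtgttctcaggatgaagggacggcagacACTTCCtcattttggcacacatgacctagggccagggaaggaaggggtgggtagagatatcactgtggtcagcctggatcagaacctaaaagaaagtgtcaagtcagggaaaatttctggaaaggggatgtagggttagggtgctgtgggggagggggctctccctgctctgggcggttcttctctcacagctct
GGAAGT on either strand occurred in 19.7% of 32851 RefSeq promoter windows of the same length. Among the resident macrophage genes with a window it occurred in 5 of 12, which were C1qb, C1qc and the genes Fcna, Mrc1 and Spic. A match is a run of letters and not a measured binding site.

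Other macrophage genes varied more between mice. Cd5l, a scavenger protein secreted by tissue macrophages, had 1.40, 6.96 and 1.55 CPM in N187, N116 and N129 and at most 0.3001 CPM in controls (log2 fold change 4.37 ± 1.00, edgeR adjusted p = 0.27). Axl, a receptor for apoptotic cells, had 10.3, 33.1 and 12.3 CPM in CD11b BMT and 7.43 to 9.12 CPM in control libraries. Trem2, a lipid-sensing receptor, had 8.71, 8.09 and 19.6 CPM in CD11b BMT and 3.85 to 6.24 CPM in control libraries. These were above every control in all 3 mice. Adgre1, a surface antigen of mature macrophages, had 61.0 to 65.9 CPM in CD11b BMT against 64.0 to 68.1 CPM in controls, and the iron exporter gene Slc40a1 had 138 to 286 CPM in CD11b BMT against 263 to 292 CPM in controls, so these overlapped. Of the 25 listed markers, Marco was at 0 in all 6 libraries, Cd209f at 0 in every CD11b BMT library and Timd4 at 0 in every control. The whole list took 0.0915% to 0.115% of counts in CD11b BMT and 0.0793% to 0.0825% in control libraries, and its part in other lists was not tested. Axl, Trem2, Adgre1 and Slc40a1 were chosen after their values were seen.

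Monocyte markers lay on both sides. For classical monocytes 3 of 18 genes were above and 3 below every control, shares near the background of 12.2% and 11.9%. The median log2 fold change was 0.07. It was -0.004 without N187, 0.15 without N116 (7 above, background 22%) and 0.15 without N129. Ctss, a lysosomal cysteine protease, had 268, 254 and 329 CPM in N187, N116 and N129, against 236, 207 and 199 CPM in N168, N112 and N128. The versican gene Vcan overlapped, with 92.6, 42.7 and 128.4 CPM in CD11b BMT and 73.0, 23.5 and 26.4 CPM in controls. Its log2 fold change was 1.10, and 0.72 without N129. Among 15 genes of nonclassical, or patrolling, monocytes 5 were above and 2 below every control (background 12.2% and 11.9%). Their median was 0.20, or 0.38 without N187 and 0.13 without N129. Cd300e, an activating receptor, had 9.75, 25.4 and 32.1 CPM in CD11b BMT libraries, against 4.07, 7.71 and 5.33 CPM in controls. Itgad, the integrin alpha D chain of splenic and marrow macrophages, had 1.10, 11.2 and 13.9 CPM in CD11b BMT libraries, against 0.397, 0.374 and 0.250 CPM in controls. As with C1q, N187 was the lowest of the 3 transplanted mice, and both genes passed without it (edgeR adjusted p = 0.0182 for Cd300e and 0.000647 for Itgad). Neither gene passed without N116 or without N129.

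The osteoclast genes tested were few and low but mostly on 1 side. Of 10 listed, 6 were tested, with 5 above and 1 (Nfatc1) below every control (background 12.2% and 11.9%). Calcr, the calcitonin receptor gene, was at 0 in every CD11b BMT library but not in every control. The whole list took 0.0115%, 0.0148% and 0.0204% of counts in N187, N116 and N129. The controls had 0.0117% to 0.0126%, so that N187 was below every control. Acp5, tartrate-resistant acid phosphatase, had 10.3, 28.5 and 35.0 CPM in N187, N116 and N129, against 5.31, 6.16 and 8.20 CPM in N168, N112 and N128, with a log2 fold change of 1.91 ± 0.40 (edgeR adjusted p = 0.27). It passed without N187 (2.27, edgeR adjusted p = 0.00631) and did not without N129 (1.57, edgeR adjusted p = 0.24). The collagen-cutting protease genes Ctsk and Mmp14 were led by N129, with 23.9 and 22.7 CPM there, against at most 4.61 and 2.99 CPM in the other 2 transplanted mice and 1.70 and 1.15 CPM in controls. Their log2 fold changes were 3.05 and 3.60, and 1.56 and 1.57 without N129. Stroma and endothelium markers took 0.00753%, 0.00208% and 0.00539% of counts in N187, N116 and N129, against 0.00161%, 0.00209% and 0.00196% in N168, N112 and N128. Their part in the osteoclast values was not tested. Col1a2, a collagen of stromal cells, had 1.65, 0 and 4.85 CPM in CD11b BMT libraries, against 0, 0.46 and 0 CPM in controls. The median log2 fold change of the 6 was 2.21, and 1.53 without N129. Nfatc1, a transcription factor of osteoclasts, Calcr and Col1a2 were chosen after their values were seen.

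Lipid handling genes lay on both sides. Of 21 genes tested, 5 were above and 4 below every control, where 12.2% and 11.9% of all genes were. Genes on both sides are therefore not particular to this list. Those above were the cholesterol exporters Abca1 and Abcg1, the oxysterol receptor gene Nr1h3 (LXR alpha), the fatty acid receptor gene Pparg and the desaturase gene Scd2. Those below included Srebf2, the regulator of cholesterol synthesis, and the synthesis enzyme gene Hmgcs1, both targets of the SREBP-2 protein. Abca1 had 9.66, 23.6 and 32.3 CPM in N187, N116 and N129, against 3.08, 4.32 and 4.75 CPM in N168, N112 and N128. Abcg1 had 62.1, 127 and 119 CPM in CD11b BMT libraries, against 36.4, 47.7 and 43.2 CPM in controls. Nr1h3 had 1.40, 3.95 and 5.81 CPM in CD11b BMT libraries, against 0.695, 0.748 and 0.550 CPM in controls. For all 3, the lowest transplanted mouse (N187) was above the highest control. Log2 fold changes were 2.43 ± 0.40 for Abca1, 1.28 ± 0.24 for Abcg1 and 2.49 ± 0.51 for Nr1h3, each with an edgeR adjusted p of 0.27. Without N187 they passed, with edgeR adjusted p-values of 0.00451, 0.00571 and 0.0216. None of the 3 genes passed without N116 or without N129.

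Srebf2 had 93.5, 62.0 and 98.4 CPM in N187, N116 and N129, against 158, 135 and 144 CPM in N168, N112 and N128. Every transplanted mouse was below every control, with a log2 fold change of -0.78 ± 0.17 (edgeR adjusted p = 0.27), and the gap was -0.76 on day 26 and -0.83 on day 27. Hmgcs1 had 27.3, 21.2 and 28.9 CPM in CD11b BMT libraries, against 45.4, 34.0 and 32.5 CPM in controls. Both genes had their lowest value of the 6 libraries in N116. Hmgcs1, Pparg and Scd2 were singled out after their values were seen. Scaling bears on the lower side, where 1 of the 21 genes was below every control with library totals or on the TPM scale. Of all genes, 6.93% were below with library totals and 5.75% on the TPM scale, so the count was near the background. Without N187 8 were above (background 18.7%).

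The 250 bases upstream of Abca1 (ENSMUSG00000015243) are shown because a repeat of the kind bound by LXR stands there. The window is chr4:53159896-53160145 on the minus strand of GRCm38.p6, from RefSeq. Capitals mark a direct repeat of the nuclear receptor core GGTNA, of the DR4 kind, found on the opposite strand. The search used that core, 5 bases of any kind and the core again.
Abca1: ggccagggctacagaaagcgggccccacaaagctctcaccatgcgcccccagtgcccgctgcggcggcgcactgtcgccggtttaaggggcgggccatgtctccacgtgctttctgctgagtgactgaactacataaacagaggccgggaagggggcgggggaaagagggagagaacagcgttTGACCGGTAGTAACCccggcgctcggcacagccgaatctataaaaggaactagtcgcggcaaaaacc
This letter pattern occurred, on either strand, in 0.621% of the 32851 promoter windows of that length. The lipid handling list has 12 genes with a window, and the pattern occurred in Abca1, Fasn and Srebf1. No binding was measured here.

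**Figure D3:**
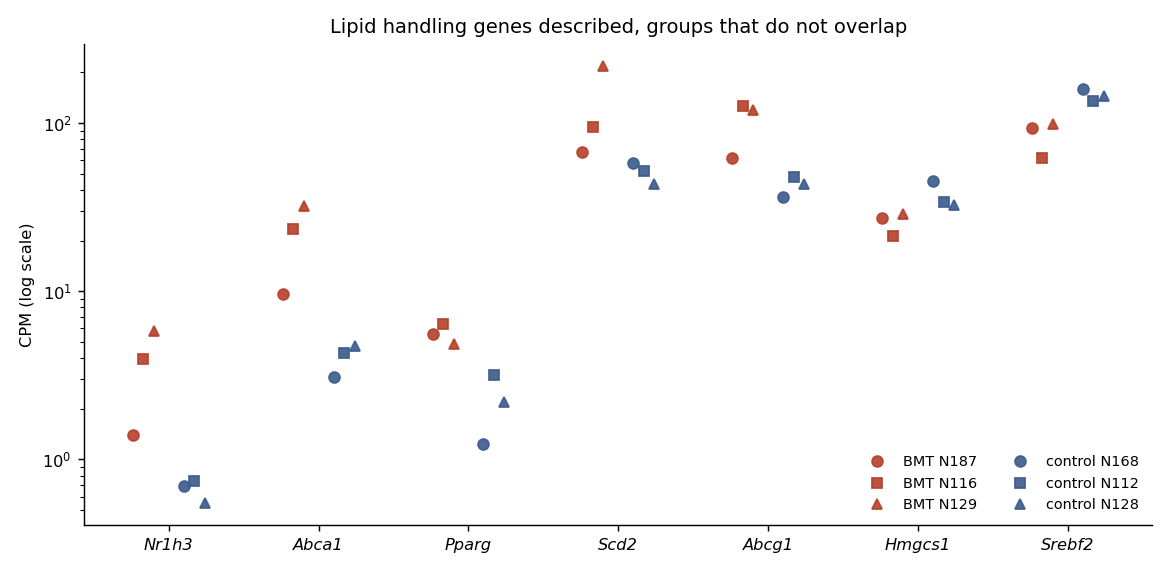
For 7 lipid handling genes whose groups do not overlap (x axis), points give CPM on a log scale (y axis) in CD11b BMT (red) and CD11b control libraries (blue). Nr1h3, Abca1, Pparg, Scd2 and Abcg1 lie above every control, and Hmgcs1 and Srebf2 below.

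Neutrophil genes were ordered by stage, with the smallest list medians in N116. Of 15 primary granule genes, 7 were above and 1 (Hk3, a hexokinase) was below every control (background 12.2% and 11.9%). The median log2 fold change was 0.34. Mpo, myeloperoxidase, had 3125, 3137 and 3815 CPM in N187, N116 and N129, against 2482, 2483 and 2420 CPM in N168, N112 and N128. Ctsg, cathepsin G, had 302, 292 and 510 CPM in CD11b BMT and 212 to 252 CPM in control libraries. Gstm1, a glutathione transferase, had 144, 170 and 239 CPM in CD11b BMT and 115.9 to 125.5 CPM in control libraries. The excess was largest in N129 for these genes and present in the other 2 mice. Log2 fold changes were 0.45 ± 0.12 for Mpo, 0.68 ± 0.21 for Ctsg and 0.61 ± 0.17 for Gstm1 (SE, n = 3 each; edgeR adjusted p = 0.27 for each). Without N129 they were 0.35, 0.37 and 0.39.

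Genes of later stages lay on the other side, by little in N116. Median log2 differences in N187, N116 and N129 were -0.213, -0.047 and -0.605 for secondary and tertiary granule genes. For mature neutrophil genes they were -0.556, -0.169 and -1.018. Of 20 secondary and tertiary granule genes, 0 were above and 6 below every control (background 12.2% and 11.9%). The median log2 fold change was -0.27, or -0.12 without N129. Without N116, 14 of the 20 were below (background 20.3%). Olfm4, a secreted olfactomedin glycoprotein, had 526, 378 and 204.2 CPM in N187, N116 and N129, against 1024, 704 and 817 CPM in N168, N112 and N128. The collagenase gene Mmp8 had 2095, 2134 and 892 CPM in CD11b BMT and 2542 to 2734 CPM in control libraries, a log2 fold change of -0.64, or -0.33 without N129. Among 22 mature neutrophil genes, 0 were above and 13 below every control (background 11.9%), with a median of -0.53. The genes below included the chemokine receptor gene Cxcr2, the growth factor receptor gene Csf3r, and the alarmin genes S100a8 and S100a9. Hk3, Cxcr2 and Csf3r were chosen after their values were seen. Il1r2, the decoy receptor for interleukin 1, had 60.0, 72.5 and 46.4 CPM in CD11b BMT libraries, against 113, 91.4 and 98.3 CPM in controls. Fpr1, the formyl peptide receptor, had 130, 146 and 78.1 CPM in CD11b BMT and 167 to 212 CPM in control libraries, a log2 fold change of -0.65, or -0.42 without N129. S100a9 had 22640 to 39810 CPM in CD11b BMT and 41000 to 48880 CPM in controls. The count of mature neutrophil genes below was also 13 without N129 (background 14.3%), with a median of -0.33. Their medians within days were -0.53 on day 26 and -0.52 on day 27. The summed share of mature neutrophil genes moved with these results (4.83% to 7.58% in CD11b BMT, 7.84% to 8.84% in control libraries), and its part in the other lists was not tested.

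DNA replication genes were nearly all on the higher side, by small amounts. Of 24 tested, 19 were above and 0 below every control (background 12.2% above), with a median log2 fold change of 0.25. Mcm2, a subunit of the replicative helicase, had 90.7, 98.3 and 101 CPM in N187, N116 and N129, against 83.7, 79.6 and 78.0 CPM in N168, N112 and N128. Cdt1, which loads that helicase, had 39.1 to 47.5 CPM in CD11b BMT and 31.9 to 35.5 CPM in control libraries. Mitosis genes had 1 of 22 above every control (Birc5, survivin), less than the background of 12.2%. The list median was 0.17, or 0.089 without N129. Their median difference was -0.02 in N116, and 17 of 22 were above every control without that library (background 22%).

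Cytosolic ribosomal protein genes also lay higher. Of 85 tested, 66 were above and 1 (Rpl3l, a muscle form) below every control (background 12.2% and 11.9%). The median log2 fold change was 0.34. Rps18, of the small subunit, had 405, 348 and 488 CPM in N187, N116 and N129, against 299, 273 and 285 CPM in N168, N112 and N128. Rpl8, of the large subunit, had 424, 439 and 516 CPM in CD11b BMT and 325 to 354 CPM in control libraries. The medians by mouse were 0.26 in N187, 0.21 in N116 and 0.53 in N129. The count above was also 66 without N129 (background 14.9%). In CD45.1 host cells the median of these genes was 0.05 and 1 of 85 passed in each direction. These genes have many pseudogenes that can share their reads.

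**Figure D4:**
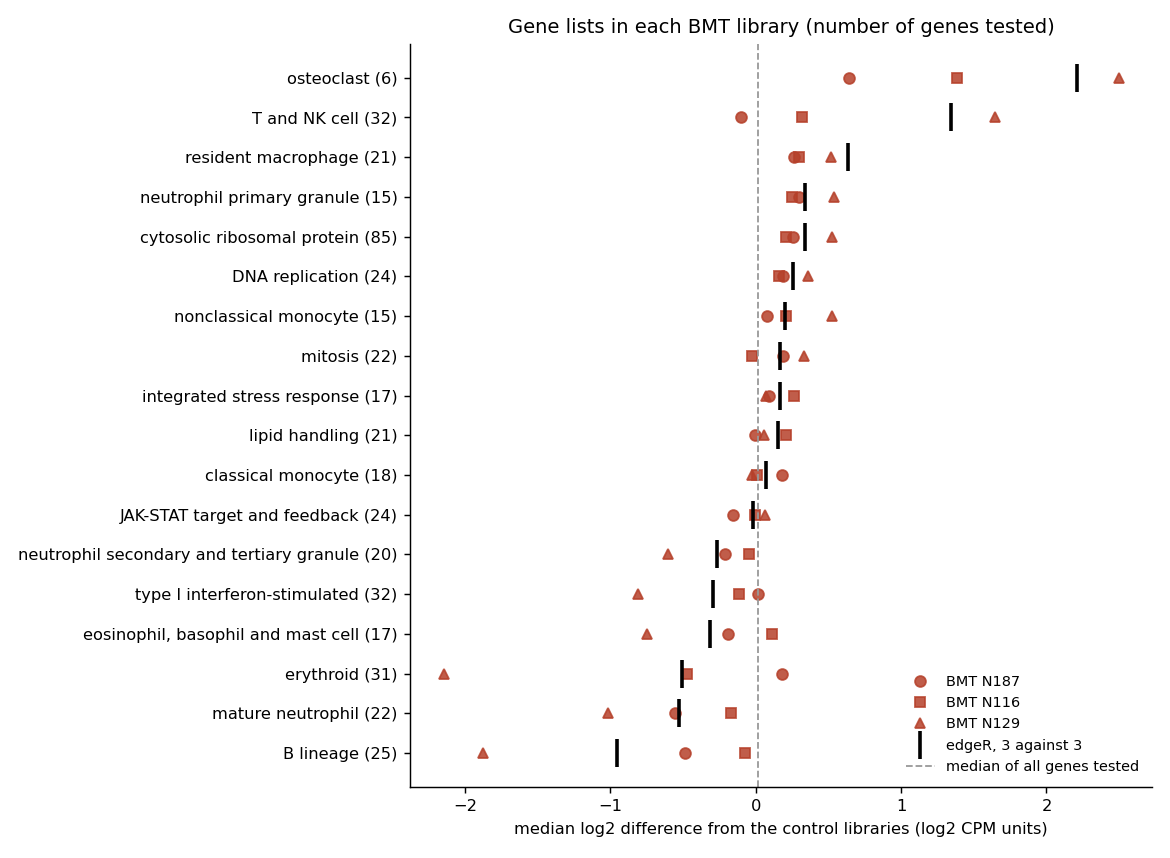
For each gene list (number of genes tested in brackets), red points give the median log2 difference from the control mean in each CD11b BMT library and the black bar the median edgeR log2 fold change. The dashed line is the median of all genes tested, 0.017. Among the 3 mice, N129 lies furthest from the line for the osteoclast, erythroid (-2.14), B lineage (-1.88), T and NK cell (1.65) and mature neutrophil (-1.02) lists.

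The T and NK cell and erythroid lists rested on N129, and the B lineage list did so in part. T and NK cell genes had a median log2 fold change of 1.34 over 32 genes, but 0.11 without N129, and medians by mouse of -0.10, 0.32 and 1.65 in N187, N116 and N129. Cd3e, a chain of the T cell receptor complex, had 0.487, 0.847 and 6.96 CPM in these mice and 0.248 to 0.576 CPM in controls, so that N187 lay among the controls. The chemokine gene Ccl5 had 3.96, 4.38 and 42.3 CPM in CD11b BMT and 1.84 to 3.68 CPM in control libraries. The log2 fold changes were 2.96 for Cd3e and 2.60 for Ccl5, and 0.91 and 0.57 without N129. T and NK genes together took 0.0137% to 0.0371% of the counts in CD11b BMT and 0.0111% to 0.0126% in control libraries, and the part of such cells in these values was not tested. With all 6 libraries 3 of the 32 were above every control (background 12.2%), and without N187 12 were (background 18.7%). Erythroid genes ran the other way: their medians were 0.18, -0.47 and -2.14 in N187, N116 and N129, and the list median was -0.08 without N129 and -1.38 without N187. Their median was 0.77 on day 26 and -1.49 on day 27. B lineage genes had a median of -0.95, or -0.48 without N129. Below every control were 2 of 25 (background 11.9%), or 12 without N116 (background 20.3%). B lineage genes took 0.0199% of the counts in control N128, against 0.00851% and 0.0129% in controls N168 and N112. The part of control N128 in the list median was not tested. Ms4a1 (CD20) overlapped, at 3.35, 7.15 and 0.915 CPM in CD11b BMT and 3.97, 6.21 and 16.9 CPM in control libraries.

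Several genes of other granulocytes lay lower. Of 17 eosinophil, basophil and mast cell genes, 6 were below and 0 above every control (background 11.9% and 12.2%). Without N129, 5 were below and 3 above (background 14.3% and 14.9%). The median log2 fold change was -0.31, or -0.12 without N129. Alox15, an arachidonate lipoxygenase of eosinophils and macrophages, had 31.1, 15.7 and 7.84 CPM in N187, N116 and N129, against 72.0, 66.0 and 53.4 CPM in N168, N112 and N128. Ccr3, the eotaxin receptor, had 4.02, 2.89 and 0.438 CPM in CD11b BMT and 10.2 to 12.1 CPM in control libraries. Il5ra, the interleukin 5 receptor, had 1.74, 1.51 and 0.895 CPM in CD11b BMT and 3.05 to 4.20 CPM in controls. All 3 were below every control in every transplanted mouse. The log2 fold change of Alox15 was -1.82 ± 0.41 (SE; edgeR adjusted p = 0.27), and it passed without N187 (-2.44, edgeR adjusted p = 0.0259). Alox15 did not pass without N116 or without N129. Ear1, an eosinophil ribonuclease gene, had 27.9 to 72.3 CPM in CD11b BMT against 79.6 to 94.9 CPM in controls (log2 fold change -0.70, or -0.40 without N129) and belongs to a family of near-identical copies, which leaves its value uncertain.

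JAK-STAT targets and feedback genes lay on both sides. Of 24 tested, 3 were above and 5 below every control (background 12.2% and 11.9%), a share above near the background. The median log2 fold change was -0.02, or -0.083 without N129. Ccnd1 (cyclin D1) had 4.75, 9.69 and 5.05 CPM in N187, N116 and N129, against 2.28, 1.87 and 2.40 CPM in N168, N112 and N128, with a log2 fold change of 1.57 ± 0.32 (edgeR adjusted p = 0.27). Socs2, a feedback inhibitor of cytokine receptors, had 0.914, 0.423 and 0.358 CPM in CD11b BMT libraries, against 0.248, 0.173 and 0.150 CPM in controls. The receptor-bound kinase gene Jak1 had 299 to 387 CPM in CD11b BMT and 423 to 435 CPM in controls, below in every mouse. Cish and Pim1, STAT5 targets, had 3.72 to 5.49 and 191 to 231 CPM in CD11b BMT libraries, against 4.55 to 5.29 and 235 to 243 CPM in controls. Cish overlapped between the groups, while Pim1 was lower in each transplanted mouse by a log2 fold change of -0.13 (edgeR adjusted p = 0.51).

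Interferon-stimulated genes had 0 above and 4 below every control among 32, a share below near the background of 11.9%, with a median log2 fold change of -0.29. Without N129 the median was -0.05, with 4 above and 4 below, shares near the background of 14.9% and 14.3%. Without N187 13 of the 32 were below (background 16.5%). Stat2, part of the factor that the type I interferon receptor activates, had 45.9 to 51.6 CPM in CD11b BMT and 55.7 to 67.8 CPM in control libraries. Among 17 genes of the integrated stress response 6 were above and 2 below every control (background 12.2% and 11.9%), a share below near the background. Phgdh, the entry enzyme of serine synthesis, had 21.9, 25.5 and 48.9 CPM in N187, N116 and N129, against 15.7, 15.8 and 17.6 CPM in N168, N112 and N128. Psat1, the next enzyme of that pathway, had 30.6, 37.1 and 52.4 CPM in CD11b BMT and 26.4 to 27.0 CPM in control libraries. Both serine genes were above every control with N129 highest, and their log2 fold changes of 0.97 and 0.58 were 0.53 and 0.34 without it. Ddit4, an inhibitor of mTORC1 signalling, had 7.43 to 8.23 CPM in CD11b BMT and 10.5 to 12.8 CPM in controls.

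The CD45.1 libraries from other mice gave a separate set of genes to look at in the CD11b cells. The 7 CD45.1 host libraries, taken about 7 months after transplantation, were set against 8 CD45.1 control libraries of mice without a transplant. In the host cells edgeR called 1211 genes higher (8.61%) and 1101 lower (7.82%) of 14073. These libraries share no mouse and no library with the CD11b comparison. Of the 1211, 1184 were tested in CD11b cells, and 474 (40%) were above every CD11b control, against 12.2% of all genes, while 8 were below every control. Of the 1101, 995 were tested, and 293 (29.4%) were below every CD11b control, against 11.9% of all genes, while 12 were above. The median CD11b log2 fold change was 0.27 for the first set and -0.25 for the second, where all genes had 0.017. Without N129 the counts were 507 above and 324 below, where 14.9% and 14.3% of all genes were, and without N187 they were 651 and 357, where 18.7% and 16.5% of all genes were. The sorts differ in makeup, as the shares of B lineage and mature neutrophil genes above show, and the part of that makeup was not tested.

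Set side by side, genes of the CD45.1 comparison had CD11b values of differing size. C1qa had log2 fold changes of 2.99 in CD11b and 4.08 in CD45.1 cells, and Cadm1 had 4.11 and 2.79. Car1, carbonic anhydrase 1 of red cell precursors, had -1.58 and -2.34. Vcan, by contrast, had 1.10 ± 0.49 in CD11b cells, with overlapping groups, and 2.55 in CD45.1 cells. The endothelial lipase gene Lipg had 4.45, 12.7 and 21.7 CPM in the CD11b BMT mice N187, N116 and N129, against 16.4, 0.863 and 1.6 CPM in N168, N112 and N128, so that 1 control was above 2 transplanted mice. Its log2 fold change was 1.04 ± 0.96 in CD11b cells (0.455 without N129 and 3.39 without N168) and 3.48 in CD45.1 cells. Socs2 had 1.54 in CD11b cells and -0.78 in CD45.1 cells. The test of the difference did not pass for any of these 6 genes (edgeR interaction adjusted p = 0.45 for C1qa, 0.30 for Cadm1, 0.57 for Car1, 0.15 for Vcan, 0.29 for Lipg and 0.055 for Socs2).

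**Figure D5:**
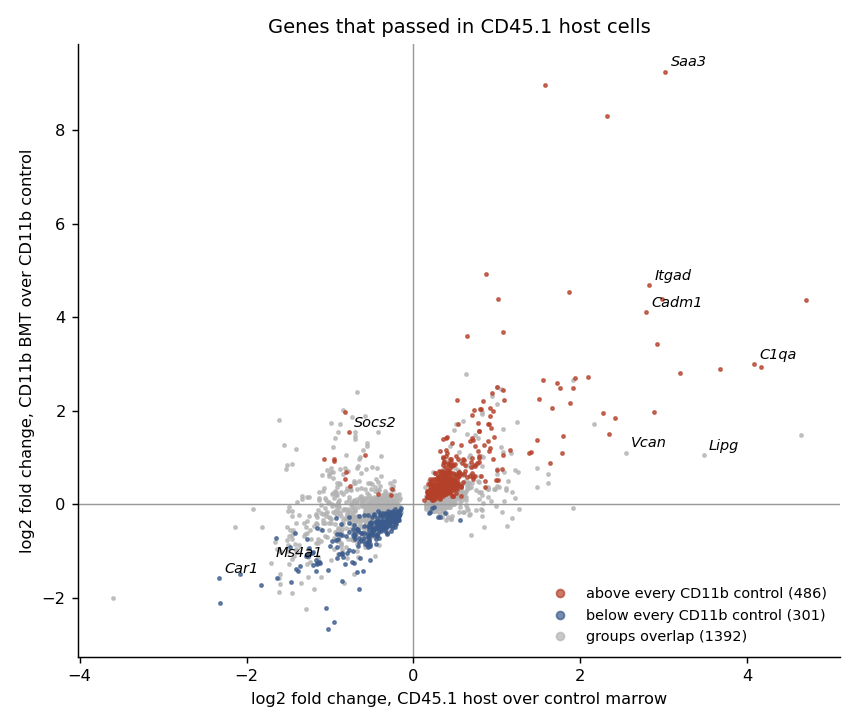
Each point is 1 of the 2179 genes that passed in CD45.1 host over CD45.1 control marrow and were tested in CD11b cells, with the CD45.1 log2 fold change on the x axis and the CD11b BMT over CD11b control log2 fold change on the y axis. Red points (486) lie above every CD11b control, blue points (301) below every one, and grey points (1392) overlap.

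The interaction itself, CD11b BMT minus control set against CD45.1 host minus control, was tested on 21 libraries with sex as a covariate. It passed for 17 of 15639 genes (0.109%), all with the larger value in CD11b cells. The 8 with the smallest p were Synpo, Maged1, Pard6b, Sdc4, Dlc1, Otub2, Lysmd2 and Coq8a, each with an edgeR adjusted p of 0.0411. In CD11b cells each of the 8 averaged at most 4.26 CPM. Sdc4, a cell-surface heparan sulfate proteoglycan, averaged 4.04 ± 3.25 CPM in CD11b BMT and 1.06 ± 0.27 CPM in CD11b control libraries (SD, n = 3 each), and 25.8 ± 7.9 CPM in CD45.1 host and 43.7 ± 10.3 CPM in CD45.1 control libraries. Coq8a, an atypical kinase of coenzyme Q synthesis, averaged 3.44 ± 0.98 and 1.80 ± 0.30 CPM in CD11b BMT and control, and 9.61 ± 2.36 and 18.3 ± 4.98 CPM in CD45.1 host and control libraries. Both genes were higher in CD11b BMT than in CD11b control and lower in CD45.1 host than in CD45.1 control libraries. The count was 0 in males alone and 0 without the control N168, and 173, 312 and 77 without N187, N116 and N129.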

How the data were processed

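The deposited gene table holds raw counts per gene, which the authors made with STAR 2.7.3a and Subread 1.6.2 (featureCounts) on GRCm39, per the submitters' processing notes, which list RSEM 1.3.3 in addition for the CD11b samples. The authors also deposited TPM values for the same libraries, and the tool behind them is not given in the sources used here, nor are the annotation and the strand setting. Where counting ignored strand, reads of overlapping genes cannot be told apart.

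The counts of the 3 CD11b BMT and 3 CD11b control libraries were filtered with filterByExpr, scaled with TMM and tested with edgeR 4.0.16 (quasi-likelihood test, no covariate, Benjamini-Hochberg adjustment, threshold 0.05) in R 4.3.3. Replicates are separate mice. DESeq2 1.42.0, limma 3.58.1, other scalings and filters, a day block, TPM values with a pseudocount of 1 or 0.1, and each library left out were tried as alternatives. The scripts were tested on simulated data. Within-day differences are of log2(CPM + 0.5). The CD45.1 comparison (edgeR, sex as covariate) and the interaction were fitted on the same table. Of 56941 identifiers, 51948 have a symbol. Named genes are the 5 with the smallest p in each direction, since none passed, without a minimum level; from each described list, at most 4 members of lowest p; 8 interaction genes and a fixed set of known genes. Other genes are said to be chosen after their values were seen, or define a cell type. The genes and lists were chosen with earlier results of these data known. Promoter sequences are from RefSeq (GRCm38.p6), a different build from the counts, and were matched by symbol only. The values of a few list members are not reported here.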

Additional observations from a re-analysis of the deposited data

Results flagged for a closer look

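For 8 genes the log2 fold change of CD11b BMT over CD11b control exceeded that of CD45.1 host over CD45.1 control in the edgeR interaction test, each at an adjusted p of 0.0411, and all 3 CD11b BMT libraries lay above every CD11b control for each. The difference between the log2 fold changes was 5.868 for the actin-associated gene Synpo, 6.203 for the polarity gene Pard6b and 6.176 for the tumour suppressor gene Dlc1. These 3 had no count in any CD11b control library, so their differences depend on the prior count and are no measure of size. The difference was 3.613 for Maged1, a gene of the MAGE family, and 3.903 for Lysmd2. Lysmd2 had only 0 to 0.0559 CPM in CD11b control libraries, so the size of its difference is uncertain too. For Sdc4 the difference was 2.804, for the deubiquitinase gene Otub2 1.996 and for Coq8a 1.891. Maged1 had 8.77 CPM in N187, against 1.32 and 1.55 CPM in N116 and N129 and at most 0.497 CPM in CD11b controls. Otub2 averaged 1.48 ± 0.31 CPM in CD11b BMT and 0.782 ± 0.257 CPM in CD11b control libraries (SD, n = 3 each), and 2.95 ± 0.67 CPM in CD45.1 host and 6.13 ± 2.25 CPM in CD45.1 control libraries. No gene passed in males alone, or with a mean of at least 1 CPM required.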

How the results depend on the processing

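The counts of genes higher and lower in CD11b BMT (0 and 0 with edgeR) were 218 and 115 with DESeq2, 47 and 12 without a filter on low counts, 1 and 0 on either TPM scale, and 679 and 355 with 28 libraries sharing the dispersion. Leaving out 1 library gave 0 to 25 higher and 0 to 3 lower. The day of euthanasia as a replicate block gave 0 and 0. Same-day deviations correlated at -0.045 to 0.076 and different-day deviations at -0.1 to 0.065. With 1 mouse of each group on day 26, the day and single mice cannot be told apart. Genes above every control numbered 2359 to 3515 and below every control 2260 to 3243 with 1 library left out, where fewer libraries have to be separated. The count below was 1058 with library totals and 685 on the TPM scale, and among genes lower in CD45.1 host cells it was 194 and 133, or 320 to 496 without 1 CD11b library or another (1815 and 293 in the reported fit). The interaction passed for 17 genes, for 0 in males only, 6 with limma-voom, 34 with RLE size factors, 0 with a mean CPM of at least 1, and 0 to 312 without 1 library. Of 96 named genes 94 kept their direction under every alternative. Many were named for a small p in these same libraries, which the alternatives use again, so a kept direction is little support. Cish reversed to 0.006 with library totals, 0.112 and 0.147 on the TPM scales, and ranged from -0.253 to 0.019 without 1 library. Jak2 reversed to 0.086, 0.123 and 0.127 under the same 3, and ranged from -0.052 to 0.005. The cause of these shifts was not tested.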

Other observations

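Some lists not described above lay on 1 side. Of 20 Toll-like receptor pathway genes, 7 were below and 0 above every CD11b control (background 11.9% below), with a median log2 fold change of -0.12. Of 17 Fc and Cd300 receptor genes, 6 were below and 1 above (background 11.9% and 12.2%), with a median of -0.14. Nuclear genes of oxidative phosphorylation had 21 of 93 above and 2 below (background 12.2% above), with a median of 0.14. None of these genes passed in edgeR.

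Some genes were far higher in N187 than in the other 5 libraries. The ribosomal pseudogene Rps19-ps6 had 55.9 CPM in N187 and at most 1.23 CPM elsewhere, and Rpl19-ps11 had 12.3 CPM against at most 1.45 CPM. The sodium pump gene Atp1b1 had 177 CPM in N187, against 17.5 and 14.6 CPM in N116 and N129 and 14.2 to 18.7 CPM in controls. The small heat-shock gene Cryab had 12.7 CPM in N187, against 0.282 and 0.557 CPM in N116 and N129 and at most 0.748 CPM in controls.

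In N129 the dendritic cell lectin gene Cd209a had no count, against 10.4 and 14.9 CPM in N187 and N116 and 8.20 to 10.5 CPM in controls. The red cell anion exchanger gene Slc4a1 had 1.19 CPM there, against 22.8 and 6.78 CPM in N187 and N116 and 13.2 to 29.0 CPM in controls. The interleukin 2 receptor gene Il2rb had 37.4 CPM there, against 2.99 and 5.34 CPM in N187 and N116 and 1.84 to 5.44 CPM in controls.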
